A study of Homo sapiens with 6 samples.

Results

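The mitochondrial genome was described here through its 37 annotated genes, taken as every row of the deposited table whose symbol starts with MT- and that lies on the mitochondrial chromosome, out of 29435 rows in all. They were 22 tRNA, 13 mRNA and 2 rRNA rows, 28 on the plus strand and 9 on the minus strand of GRCh38, and no other row lay on that chromosome. RNA-seq had been done on cells labelled HepG2, a human liver tumour line, treated for 4 h with saikosaponin A (SsA) at 20 µM or with DMSO, the solvent, with 3 libraries per group. SsA is a triterpenoid saponin of Bupleurum root. Nothing in the labels ties the 3 libraries of a group to separate cultures. The p-values below therefore rest on a spread that may be technical. Of 11 hepatocyte marker genes looked for, 6 had a row, and all 6, among them HNF4A, FGB and APOA1, were below 0.1 FPKM in every library, so the liver identity in the label was not seen in these transcripts.

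Human mitochondrial DNA is a small circle copied into RNA from both strands as long transcripts that cover many genes each. Most mRNAs and rRNAs are flanked by tRNAs, which RNase P (with the subunits TRMT10C, HSD17B10 and PRORP) and ELAC2 cut out, so that the excision of a tRNA also frees the ends of its neighbours. Most mitochondrial mRNAs then receive a poly(A) tail from MTPAP, while mature tRNAs carry none and the tail of MT-ND6 mRNA is short or absent. The minus strand of the reference is the one that reads MT-ND6 and 8 tRNAs in the 5′ to 3′ sense; the plus strand reads both rRNAs, the other 12 mRNAs and 14 tRNAs. The libraries were made from oligo(dT)-selected RNA with an average insert of 300 ± 50 bp, whereas the tRNA rows are 59 to 75 nt long. A count on a tRNA row may therefore come from a longer RNA that still contains the tRNA, and mature tRNA and unprocessed RNA cannot be told apart. The library kit marks strand, but how strand was treated in the counting is not stated in the sources used here, so reads from the strand opposite to a row cannot be told apart from its own.

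The sequences on which the description below turns are given first, 5′ to 3′ on the strand of the gene, from the GRCh38 genome with GENCODE 29 coordinates on chromosome MT. The tRNA genes of the MT-TH to MT-TL2 cluster, which lay lowest in SsA relative to DMSO, follow each other without a gap, and the anticodon is in capitals.
MT-TH, histidine, plus strand, 12138-12206: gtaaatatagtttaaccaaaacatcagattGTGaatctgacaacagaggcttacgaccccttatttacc
MT-TS2, serine, plus strand, 12207-12265: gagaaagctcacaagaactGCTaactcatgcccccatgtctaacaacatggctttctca
MT-TL2, leucine, plus strand, 12266-12336: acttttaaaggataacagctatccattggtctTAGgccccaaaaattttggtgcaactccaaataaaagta
The next 4 lie side by side on the minus strand between MT-ND2 and MT-CO1 and held most of the tRNA counts in DMSO, and MT-TF is the first gene of the plus strand.
MT-TA, alanine, minus strand, 5587-5655: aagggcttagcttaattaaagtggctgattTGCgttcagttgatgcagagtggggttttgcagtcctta
MT-TN, asparagine, minus strand, 5657-5729: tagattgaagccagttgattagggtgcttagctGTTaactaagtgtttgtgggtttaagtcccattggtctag
MT-TC, cysteine, minus strand, 5761-5826: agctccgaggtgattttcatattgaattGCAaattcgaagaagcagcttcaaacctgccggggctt
MT-TY, tyrosine, minus strand, 5826-5891: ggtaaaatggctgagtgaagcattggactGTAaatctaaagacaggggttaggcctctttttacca
MT-TF, phenylalanine, plus strand, 577-647: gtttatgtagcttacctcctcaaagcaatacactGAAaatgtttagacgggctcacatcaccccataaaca
MT-TS1 and MT-TP are the tRNA rows whose shares overlapped between the groups.
MT-TS1, serine, minus strand, 7446-7514: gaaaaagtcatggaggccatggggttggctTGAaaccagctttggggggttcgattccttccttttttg
MT-TP, proline, minus strand, 15956-16023: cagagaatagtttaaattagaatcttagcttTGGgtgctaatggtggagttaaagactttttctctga
Last come the final 30 bases of 3 mRNA rows, with their last 3 bases in capitals, since MT-CO1 and MT-TS1, and MT-ND5 and MT-ND6, end against each other on opposite strands with no base between them.
MT-CO1 end, plus strand, 7416-7445: ttcgaagaacccgtatacataaaatctAGA
MT-ND5 end, plus strand, 14119-14148: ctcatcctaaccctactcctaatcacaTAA
MT-ND6 end, minus strand, 14149-14178: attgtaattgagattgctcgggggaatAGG

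Total counts ranged from 58955482 to 69567633 in the SsA libraries and from 57768359 to 74912492 in the DMSO libraries. Values below are given for libraries 1, 2 and 3 of a group in that order. The mitochondrial genes took 18.8, 7.62 and 8.28% of all counts in SsA and 6.36, 6.19 and 14.9% in DMSO. SsA library 1 and DMSO library 3 thus stood apart from the other 4, in opposite groups, and the mean difference of 2.43 percentage points had an exact two-sided permutation p of 0.5 and was -1.19 without SsA library 1. With 3 libraries against 3 the smallest p that this test allows is 0.1. Compared in pairs by a chi-square per gene, SsA libraries 2 and 3 gave 15.2 and DMSO libraries 1 and 2 gave 15.5. SsA library 1 gave 368 with DMSO library 3, against 428 and 376 with SsA libraries 2 and 3. DMSO library 3 gave 329 and 361 with DMSO libraries 1 and 2. Each group thus held a close pair and a differing library, which its n of 3 does not show. In bulk libraries a change in the number of mitochondria or cells and a change in RNA per mitochondrion cannot be told apart. For this reason each gene was expressed as a share of the mitochondrial counts of its library, with mRNAs and rRNAs in percent and the scarcer tRNAs per 100000 mitochondrial counts, and the 2 libraries were also left out.

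Within the mitochondrial counts, the SsA libraries held a smaller share of tRNA and of minus-strand RNA, and a larger share of plus-strand mRNA, than any DMSO library. Plus-strand mRNA made up 94.2, 91.3 and 91.5% in SsA, against 87.6, 87.4 and 90.5% in DMSO. Plus-strand tRNA made up 0.0506, 0.0566 and 0.0552% in SsA, against 0.254, 0.255 and 0.139% in DMSO. Minus-strand tRNA made up 0.118, 0.200 and 0.199% in SsA and 0.589, 0.584 and 0.397% in DMSO. For these classes the lowest and highest libraries of the groups did not overlap. The minus-strand mRNA class is MT-ND6 alone, a complex I subunit, at 0.360, 0.313 and 0.261% in SsA, against 1.28, 1.28 and 1.20% in DMSO. The rRNA share of 5.28, 8.11 and 8.01% in SsA overlapped that of 10.3, 10.5 and 7.76% in DMSO.

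The log2 ratio of minus-strand to plus-strand counts, rRNA left out, was -7.62, -7.48 and -7.64 in SsA, against -5.56, -5.56 and -5.83 in DMSO, a mean difference of -1.93. Of 8 such group values compared, the 5 without overlap (4 class shares and this strand ratio) each had an exact two-sided permutation p of 0.1, the smallest possible, and a Benjamini-Hochberg value of 0.16 over the 8. The log2 ratio of the last 6 to the first 6 plus-strand mRNAs overlapped, at -0.36, -0.47 and -0.45 in SsA and -0.37, -0.42 and -0.32 in DMSO (exact permutation p = 0.3), so no slope along the plus strand was detectable. In SsA, all minus-strand genes together held 0.478, 0.513 and 0.460% of the mitochondrial counts, and in DMSO 1.87, 1.86 and 1.59%.

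**Figure D1:**
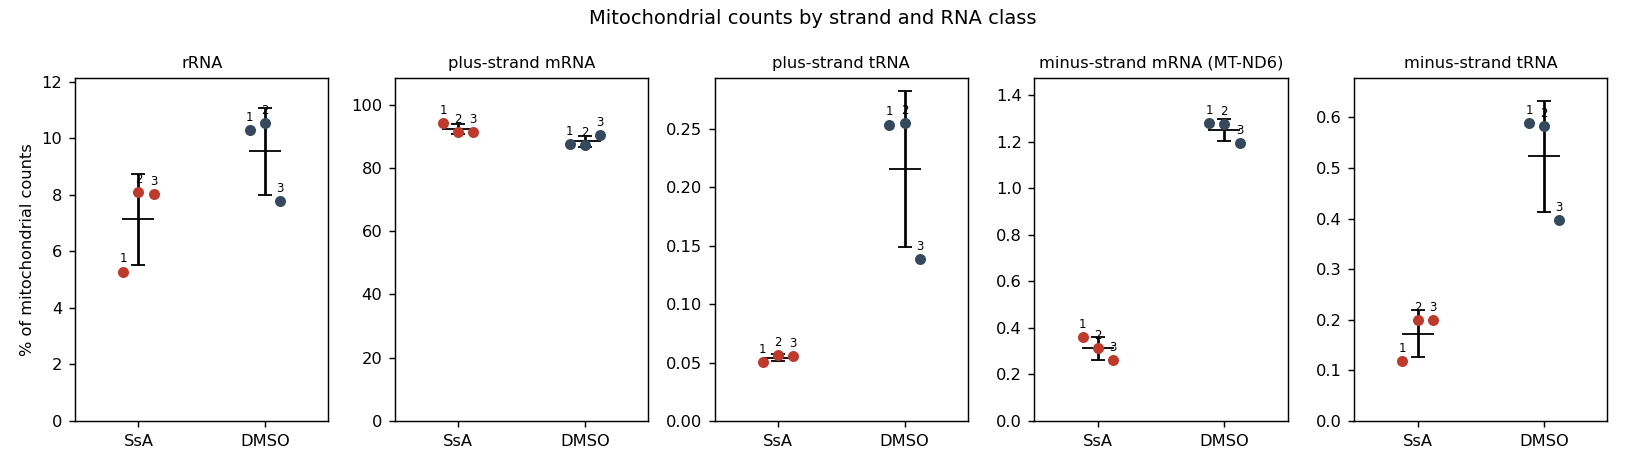
Share of the mitochondrial counts (%, linear axes from 0, a scale of its own per panel) held by each strand and RNA class, SsA left and DMSO right. Points are libraries numbered by replicate, and bars give the mean ± SD (n = 3). The SsA points lie below all DMSO points for MT-ND6 and both tRNA classes and above them for plus-strand mRNA; the rRNA points overlap.

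Gene by gene, SsA and DMSO libraries did not overlap in share for 26 of the 37: 3 genes were higher in every SsA library (MT-CO2, MT-CO3 and MT-CYB) and 23 lower (MT-ND1, MT-ND5, MT-ND6 and 20 tRNAs), with 11 overlapping. On the same scale, 8.77% of the 11427 rows tested did not overlap between the groups, 0.193% being higher and 8.58% lower in SsA. Nuclear rows carry the spread of the mitochondrial total on this scale, which favours overlap. That share is therefore low by construction and does not measure how unusual the 26 are. The median log2 ratio of mean shares was -2.61 over the 22 tRNAs, 0.01 over the 13 mRNAs and -0.38 over the 2 rRNAs. Shares add up to the same total in each library, so a lower share of one gene is made up by others.

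**Figure D2:**
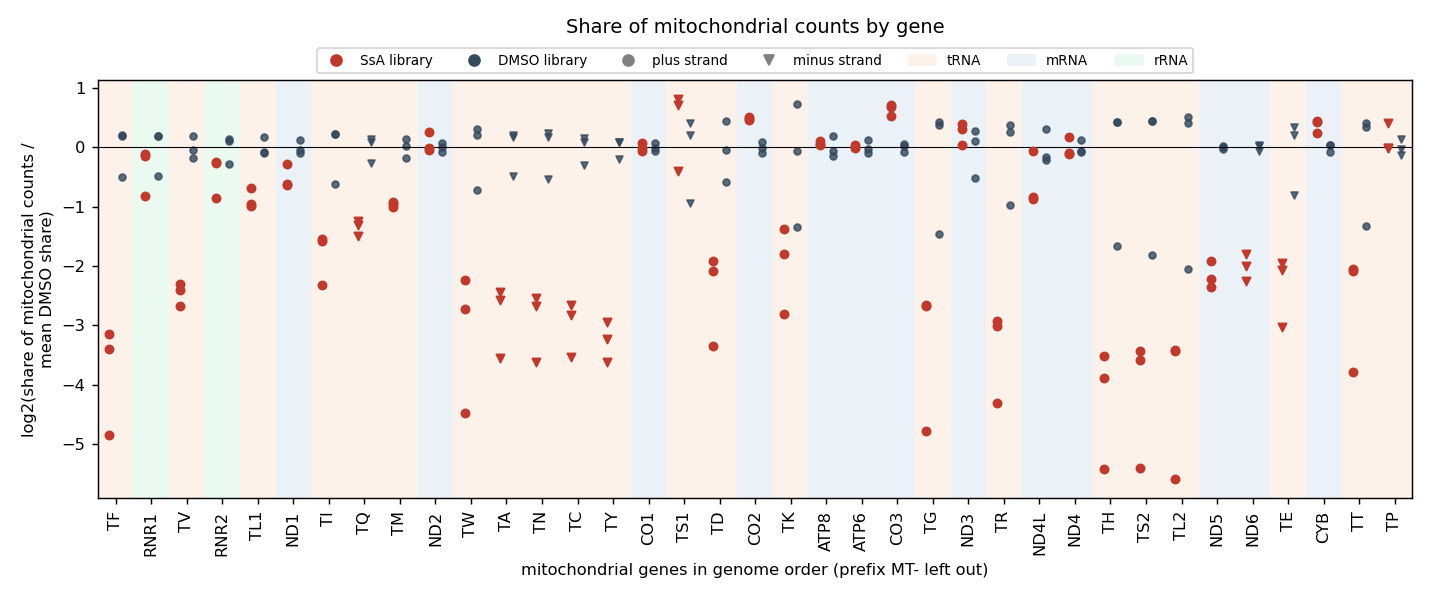
Log2 of each gene's share of mitochondrial counts divided by its mean DMSO share, in genome order, with SsA points left and DMSO points right at each gene. Circles are plus-strand and triangles minus-strand genes, and 0 is the DMSO mean. Most tRNA genes lie 1 or more log2 units below 0 in SsA, as do MT-ND5 and MT-ND6, while MT-TS1, MT-TP and most mRNAs lie near it.

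Among the rRNA and mRNA rows, those nearest the start of the plus-strand transcript showed small or overlapping differences, while the tRNAs among them, MT-TF and MT-TV, did not overlap between the groups. MT-RNR1, the small ribosomal RNA, took 0.547, 0.898 and 0.876% of mitochondrial counts in SsA and 1.11, 1.10 and 0.694% in DMSO. MT-RNR2, the large ribosomal RNA, took 4.74, 7.21 and 7.13% in SsA and 9.18, 9.43 and 7.07% in DMSO. In both rRNAs the library of high mitochondrial share was the lowest of its group, which brought DMSO library 3 down to the level of the SsA libraries. MT-ND1, a complex I subunit, was at 3.75, 2.94 and 2.99% in SsA, against 4.42, 4.30 and 4.99% in DMSO, lower in every SsA library by a factor of 1.42 in the means. MT-ND2, also of complex I, overlapped at 5.73, 4.63 and 4.76% in SsA and 4.82, 4.52 and 5.06% in DMSO.

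The largest mRNA share belonged to MT-CO1, the catalytic subunit of cytochrome c oxidase (complex IV), with 18.7, 20.5 and 19.4% in SsA and 19.3, 20.6 and 18.6% in DMSO. Its group means, 19.5 ± 0.903% in SsA and 19.5 ± 1.01% in DMSO (SD, n = 3 each), were closer than the spread between libraries. The other 2 complex IV mRNAs lay higher in SsA. MT-CO2 took 13.5, 13.8 and 13.97% in SsA, against 10.5, 9.76 and 9.25% in DMSO. MT-CO3 took 12.8, 14.2 and 14.5% in SsA, against 9.19, 8.98 and 8.37% in DMSO. Taken per gene, MT-CO3 had the highest log2 ratio of mean shares of the 37, at 0.64.

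Between those genes lie the ATP synthase (complex V) subunits, whose rows overlap each other by 46 nt on the same strand, so that reads from the shared stretch could be split between them. MT-ATP8 took 3.49, 3.56 and 3.67% in SsA and 3.08, 3.26 and 3.86% in DMSO. For MT-ATP6 the shares were 7.75, 7.66 and 7.96% in SsA and 7.27, 7.57 and 8.41% in DMSO. Neither differed beyond the spread between libraries, and MT-ATP8 counts were 44.99, 46.4 and 46.2 per 100 MT-ATP6 counts in SsA and 42.4, 43.1 and 45.9 in DMSO.

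Further along, 3 complex I mRNAs overlapped between the groups. MT-ND3 took 0.654, 0.784 and 0.834% in SsA and 0.774, 0.688 and 0.445% in DMSO. MT-ND4L took 4.06, 2.39 and 2.33% in SsA and 3.82, 3.68 and 5.26% in DMSO, and MT-ND4 took 17.8, 14.6 and 14.7% in SsA and 15.2, 14.9 and 17.3% in DMSO. MT-ND4L and MT-ND4 share 7 nt and a bicistronic mRNA, and both were highest in the library of high mitochondrial share in each group. Their ratio did separate the groups, with 22.8, 16.3 and 15.8 MT-ND4L counts per 100 MT-ND4 counts in SsA, against 25.2, 24.7 and 30.4 in DMSO. Summed by complex, the complex IV mRNAs held 44.9, 48.4 and 47.9% in SsA, against 39.0, 39.3 and 36.2% in DMSO. The 7 complex I mRNAs held 33.7, 26.8 and 26.9% in SsA and 35.5, 34.5 and 39.5% in DMSO, again without overlap and in the other direction.

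MT-ND5, a complex I subunit and the plus-strand neighbour of MT-ND6, had the lowest share in SsA relative to DMSO of all 13 mRNAs. It took 1.38, 1.11 and 1.01% of mitochondrial counts in SsA, against 5.23, 5.08 and 5.25% in DMSO, a 4.44-fold lower mean share. The DMSO libraries, library 3 included, had an SD of 0.0918 percentage points (n = 3). MT-CYB, the complex III subunit that follows on the same strand, went the other way, at 4.63, 5.22 and 5.33% in SsA and 3.99, 4.01 and 3.71% in DMSO. The counts of MT-ND5 per 100 counts of MT-CYB were accordingly 29.7, 21.3 and 19.0 in SsA, against 131, 127 and 142 in DMSO. MT-ND6, which ends against MT-ND5 on the minus strand as shown by the 30-base ends above, had a 4.02-fold lower mean share in SsA. Per 100 MT-ND5 counts there were 26.2, 28.1 and 25.8 MT-ND6 counts in SsA, against 24.5, 25.1 and 22.8 in DMSO. The 2 genes thus kept nearly the same ratio to each other in all 6 libraries, although the groups did not overlap in it. Whether MT-ND6 counts hold reads from the opposite strand, for example from MT-ND5 transcripts that run past its end, was not tested.

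**Figure D3:**
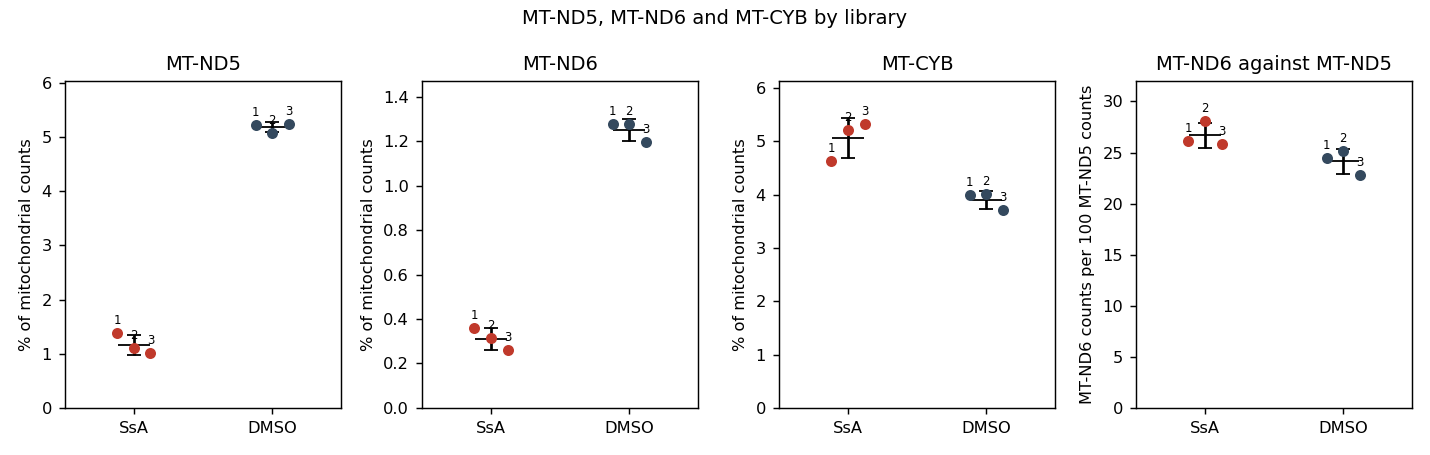
MT-ND5, MT-ND6 and MT-CYB as % of mitochondrial counts, and MT-ND6 counts per 100 MT-ND5 counts, for each library (linear axes from 0, SsA left, DMSO right, mean ± SD, n = 3, points numbered by replicate). MT-ND5 and MT-ND6 are lower and MT-CYB higher in every SsA library, while the ratio of MT-ND6 to MT-ND5 lies between 22.8 and 28.1 throughout.

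**Figure D4:**
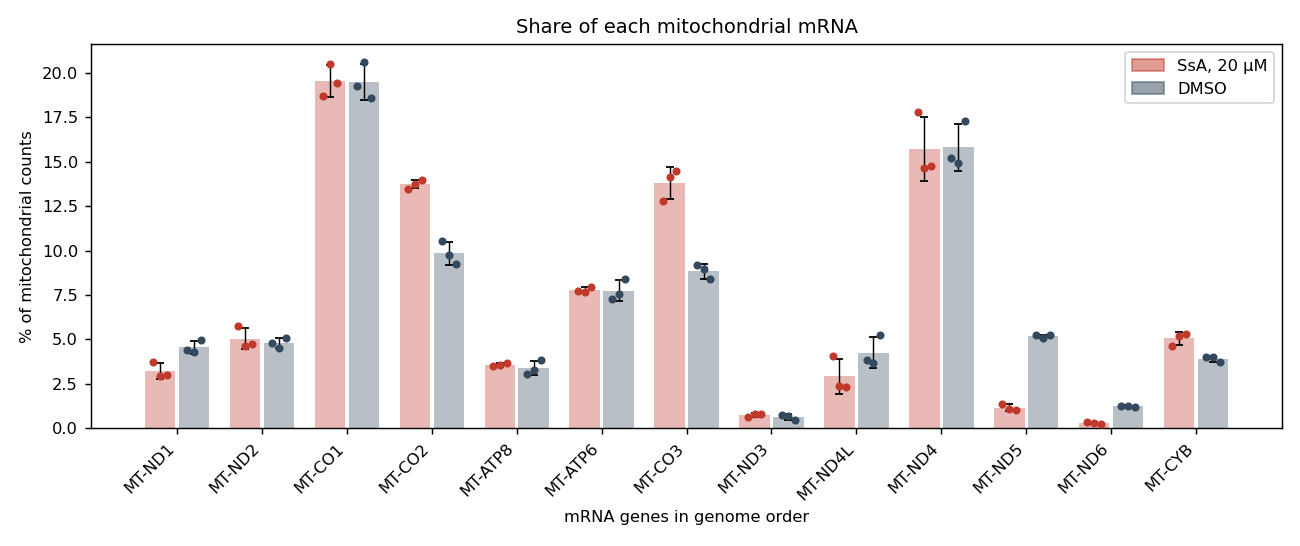
Share of mitochondrial counts (%) of each of the 13 mRNA genes in genome order, SsA bars left of DMSO bars, with the mean ± SD (n = 3) and each library as a point. The SsA bars of MT-CO2, MT-CO3 and MT-CYB are higher, those of MT-ND1, MT-ND5 and MT-ND6 lower, and the others overlap.

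Per length, on the scale of the deposited FPKM values, MT-CO2 had the highest mean level in SsA at 19806 FPKM (range 13325 to 31478) and MT-ND6 the lowest at 615 FPKM (range 356 to 1094). In DMSO, MT-ATP8 had the highest mean level at 13505 FPKM and MT-ND3 the lowest at 1323 FPKM (range 1094 to 1621). The 7 genes at the top of the DMSO order, from MT-ATP8 to MT-CO3, had overlapping ranges, so neighbours in that order did not differ beyond their spread. MT-ND5 had 673 ± 467 FPKM in SsA and 2270 ± 1195 FPKM in DMSO (SD, n = 3 each), and the highest values were those of the libraries of high mitochondrial share.

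The tRNA genes held 169, 257 and 254 of each 100000 mitochondrial counts in SsA, against 843, 839 and 535 in DMSO. Counts on single tRNA rows ranged from 8 to 5947 in SsA and from 83 to 8780 in DMSO. The lowest was MT-TW, for tryptophan, with 8, 18 and 13 counts in SsA libraries, against 91, 85 and 83 in DMSO; the exact 95% Poisson interval of the 8 counts is 3.45 to 15.8, which covers counting error only. MT-TD, for aspartate, was the other tRNA row with a mean under 100 counts, with 30, 39 and 35 in SsA and 123, 174 and 158 in DMSO. Even these scarce rows did not overlap between the groups.

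In the MT-TH, MT-TS2 and MT-TL2 cluster, whose sequences stand above, the sum was 1.42, 5.75 and 5.11 per 100000 in SsA, against 86.7, 84.7 and 17.8 in DMSO. MT-TH had 0.531, 2.0 and 1.55 in SsA, against 30.7, 30.5 and 7.24 in DMSO. MT-TS2 had 0.459, 1.79 and 1.62 in SsA and 26.3, 26.3 and 5.55 in DMSO. The third gene, MT-TL2, had 0.432, 1.96 and 1.94 in SsA and 29.7, 27.8 and 5.03 in DMSO. All 3 moved together between libraries, and their mean shares were 16.8, 15.0 and 14.4 times lower in SsA, the 3 largest factors among the 37 genes over all 6 libraries. In each group the library of high mitochondrial share had the lowest value, and these 2 libraries alone gave factors of 13.6, 12.1 and 11.6, while the other 4 gave 17.2, 15.4 and 14.7. The order of the genes differed in those 2 libraries, where MT-TF was 20.2 times and MT-TW 13.4 times lower in SsA.

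The cluster between MT-ND2 and MT-CO1, the plus-strand gene MT-TW and the 4 minus-strand genes printed above, held 34.8, 66.2 and 58.6 per 100000 in SsA, against 470, 457 and 326 in DMSO. MT-TA had 5.57, 11.9 and 10.9 in SsA and 75.2, 72.8 and 46.3 in DMSO. MT-TN had 9.70, 20.5 and 18.7 in SsA and 140, 134 and 82.1 in DMSO. In raw counts MT-TN was nearly level within each group, at 1077, 1085 and 1004 in SsA, against 6429, 6227 and 7065 in DMSO, although the mitochondrial total ranged from 5301227 to 11102832 counts in SsA and from 4588648 to 8600516 in DMSO. MT-TC had 9.97, 18.4 and 16.4 in SsA and 129, 123 and 94.0 in DMSO, and it shares a base with its neighbour MT-TY. MT-TY had 9.48, 15.1 and 12.4 in SsA and 124, 124 and 102 in DMSO, and its mean share was 9.46 times lower. The cluster held more than any other set of tRNAs in DMSO and was lower in each SsA library.

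MT-TF, the tRNA at the head of the plus strand, had 0.234, 0.755 and 0.635 per 100000 in SsA, against 7.65, 7.73 and 4.72 in DMSO. Relative to MT-RNR1, which follows it directly and overlapped between the groups, there were 0.0428, 0.0840 and 0.0724 MT-TF counts per 100 in SsA, against 0.690, 0.702 and 0.681 in DMSO. This ratio was nearly constant across the DMSO libraries. MT-TV, for valine, lies between the rRNAs and had 1.18, 1.26 and 0.971 per 100000 in SsA, against 6.04, 5.50 and 7.07 in DMSO.

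MT-TL1, for leucine, sits between MT-RNR2 and MT-ND1 and was abundant in both groups, with 40.5, 32.6 and 33.4 per 100000 in SsA, against 61.2, 60.6 and 72.7 in DMSO. Its factor of 1.83 was the smallest of the 20 tRNAs that did not overlap. Within each group it tracked MT-ND1, with 1.08, 1.11 and 1.12 counts per 100 MT-ND1 counts in SsA, against 1.38, 1.41 and 1.46 in DMSO. Between the groups this ratio did not overlap and was lower in SsA. The MT-TI, MT-TQ and MT-TM cluster after MT-ND1 held 4.93, 6.06 and 5.82 per 100000 in SsA and 16.0, 16.5 and 11.2 in DMSO. Within it, MT-TI (isoleucine) had 1.25, 2.15 and 2.09 in SsA and 7.34, 7.34 and 4.09 in DMSO. On the opposite strand, MT-TQ (glutamine) had 1.48, 1.75 and 1.66 in SsA and 4.42, 4.55 and 3.43 in DMSO; the 2 rows overlap by 3 nt. MT-TM (methionine) had 2.20, 2.15 and 2.07 in SsA and 4.21, 4.57 and 3.66 in DMSO. All 3 genes of this cluster were lower in each SsA library, by smaller factors than the clusters above.

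Single tRNAs between the mRNAs of the later plus strand were lower by larger factors. MT-TG (glycine), between MT-CO3 and MT-ND3, had 0.856, 3.68 and 3.70 per 100000 in SsA, against 30.2, 31.3 and 8.50 in DMSO. MT-TR (arginine), between MT-ND3 and MT-ND4L, had 1.21, 3.13 and 2.97 in SsA, against 30.9, 28.3 and 12.1 in DMSO. MT-TK (lysine), before MT-ATP8, had 0.856, 2.32 and 1.74 in SsA, against 5.73, 9.93 and 2.37 in DMSO, so that its highest SsA library came close to its lowest DMSO library. The mean shares of MT-TG and MT-TR were 8.50 and 9.77 times lower in SsA. MT-TE (glutamate), next to MT-ND6 on the minus strand, had 1.91, 4.02 and 3.73 in SsA, against 19.7, 18.04 and 8.96 in DMSO. MT-TT (threonine), after MT-CYB, had 0.513, 1.72 and 1.68 in SsA, against 9.07, 9.43 and 2.84 in DMSO.

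MT-TS1 and MT-TP, both on the minus strand, were the exceptions. MT-TS1 had 47.9, 104 and 111 per 100000 in SsA and 72.7, 84.1 and 32.8 in DMSO. MT-TP had 32.3, 24.3 and 24.3 in SsA and 24.1, 22.5 and 26.8 in DMSO. Both overlapped between the groups. In SsA these 2 genes and MT-TL1 came to hold most of the tRNA counts, since the other 19 tRNAs together had 48.2, 95.7 and 85.6 per 100000, against 685, 672 and 403 in DMSO. Whether MT-TS1 counts hold reads from MT-CO1 transcripts that extend past the end shown above, on the opposite strand, was not tested. Per 100 MT-CO1 counts there were 0.256, 0.508 and 0.571 MT-TS1 counts in SsA and 0.377, 0.409 and 0.177 in DMSO, an overlap.

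Set against the FPKM of the mRNA or rRNA rows on either side, 19 of the 22 tRNAs were lower in every SsA library, and MT-TL1, MT-TS1 and MT-TP overlapped. No other set of rows is given on this scale for comparison. The flanks were not all stable. MT-ND5, which flanks MT-TH, MT-TS2 and MT-TL2, had a 4.44 times lower mean share in SsA. MT-ND6, which flanks MT-TE, had a 4.02 times lower one. The median tRNA was at 0.692% of its flanking level in SsA and at 4.76% in DMSO. MT-TH, for example, was at 0.112, 0.515 and 0.395% of the mean of MT-ND4 and MT-ND5 in SsA, against 6.39, 6.49 and 1.36% in DMSO. Among all 37 genes, row length correlated with the log2 ratio of mean shares (Spearman rho = 0.62, n = 37), which describes genes that share the same 6 libraries the tRNA rows being the shortest. Over the 13 mRNAs alone the value was -0.13.

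The change relative to all transcripts was tested with edgeR on TMM-scaled counts across 11427 rows, with Benjamini-Hochberg adjustment over all of them and a threshold of 0.05. Of the 37 genes, 18 passed: 17 tRNAs fell and MT-TS1 rose. In the same fit 53.8% of all rows passed, 25.9% higher and 27.9% lower, so passing was common, and the median log2 fold change was -2.20 over the 22 tRNAs and 0.03 over all rows. Scaled to total counts without factors, 1237 rows were higher and 3901 lower, against 2956 and 3190 with TMM, and the median over all rows was -0.12; there MT-TS1 and the 17 tRNAs passed in the same directions, and MT-ND5 and MT-ND6 passed as well, both lower. MT-TR had the smallest adjusted p, with a log2 fold change of -2.81 ± 0.12 (SE) and an edgeR adjusted p of 3.94e-05. MT-TH had the largest change, -3.53 ± 0.25 (edgeR adjusted p = 1.20e-04), followed by MT-TS2 at -3.37, MT-TL2 at -3.32 and MT-TF at -3.30. MT-TV passed narrowly (-2.03 ± 0.63, edgeR adjusted p = 0.0302) and no longer did without SsA library 2, SsA library 3 or DMSO library 3. The tRNAs that did not pass were MT-TL1, MT-TQ, MT-TM and MT-TP, with log2 fold changes from -0.82 to 0.67.

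MT-TS1 had 102, 81.4 and 95.0 CPM (counts scaled to library size, with TMM) in SsA, against 42.8, 48.4 and 50.4 in DMSO, a log2 fold change of 0.97 ± 0.10 (edgeR adjusted p = 4.77e-04). It was nearly level within each group on this scale, while the mitochondrial total was not, and its share of that total overlapped. Removing the per-library trend of counts with transcript length turned its value to -1.50, by extrapolation, since the trend was fitted on rows of at least 312 nt. That trend was -0.16, -0.24 and -0.25 in SsA and 0.19, 0.18 and 0.28 in DMSO, in log2 counts per log2 of length; with it removed the tRNA median was -4.72, and its part in the other results was not tested.

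With TMM scaling and all 6 libraries, edgeR called no mRNA or rRNA, nor did DESeq2 with its own size factors, and 3 mRNAs had an unadjusted edgeR p below 0.05 (MT-ND5, MT-ND6 and MT-ND3). MT-ND5 had a log2 fold change of -1.59 ± 0.61 (edgeR adjusted p = 0.0606), MT-ND6 of -1.43 ± 0.57 (edgeR adjusted p = 0.0708) and MT-CO3 of 1.11 ± 0.48 (edgeR adjusted p = 0.0854). MT-ND5 and MT-ND6, and no other mRNA, passed as lower in 4 other fits of the 6 libraries: edgeR scaled to total counts, limma with either pseudocount, and edgeR with the length trend removed. With a term for the log2 mitochondrial share, added after seeing the data, 6 mRNAs were higher and 4 lower. This share is summed from the 37 genes themselves, so the term takes their common spread out of their errors. For MT-CO3 the standard error went from 0.48 with TMM alone to 0.02 with the term. In that fit 4182 of all 11427 rows were higher and 4070 lower, so passing was common there too. On the TMM scale the spread of the mitochondrial share enters each gene's error. In TMM-scaled CPM, MT-ND5 was at 2928, 870 and 866 in SsA, against 3080, 2926 and 8061 in DMSO, so that SsA library 1 was level with DMSO library 2 and the groups overlapped. Without SsA library 1 and DMSO library 3, 34 of the 37 genes passed, against 67.8% of all rows: 9 mRNAs, MT-RNR1, MT-TS1 and MT-TP were higher and MT-ND4L, MT-ND5, MT-ND6 and 19 tRNAs lower. MT-ND5 then stood at -1.82 ± 0.03, MT-ND6 at -1.70 ± 0.04, MT-CO3 at 1.12 ± 0.05 and MT-CYB at 0.87 ± 0.05. The libraries left out had been picked by their observed mitochondrial share. Those left in each group lay close together, as the MT-ND5 values above show. These errors and calls therefore leave out most of the spread seen over 6 libraries. All 18 genes that passed with 6 libraries were among the 34. This is no separate evidence for them, since that fit used part of the same libraries and passed nearly all genes.

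**Figure D5:**
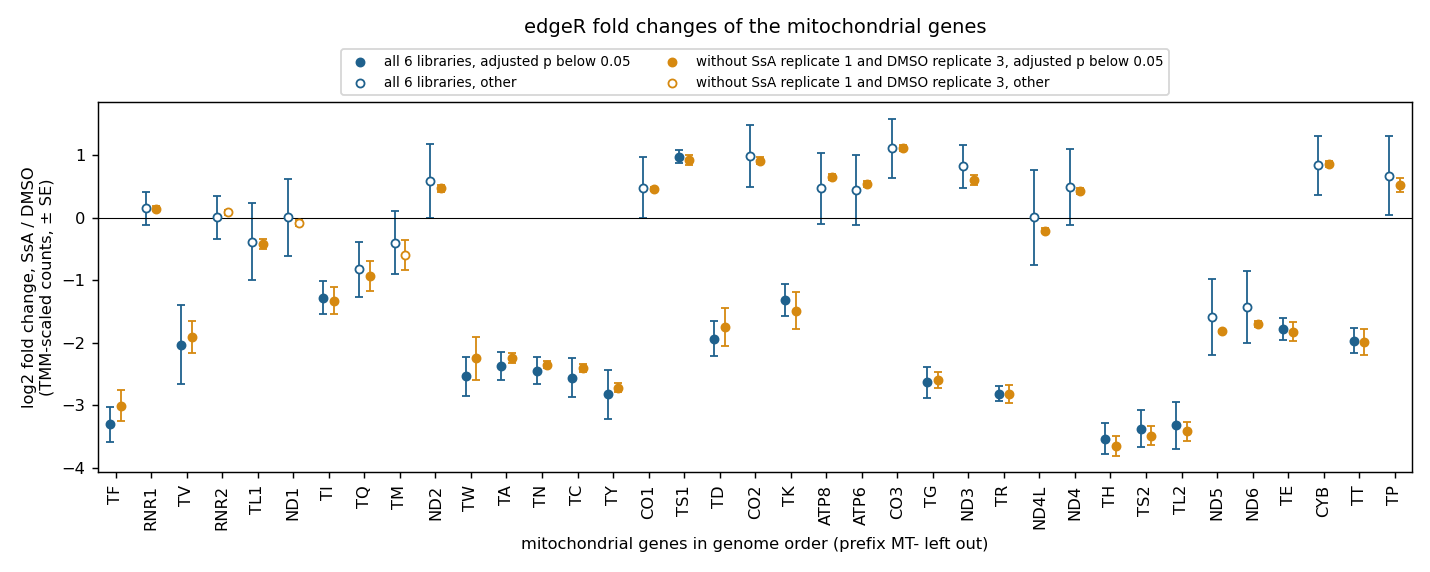
Log2 fold change, SsA over DMSO, of each mitochondrial gene in genome order on TMM-scaled counts with its standard error, from all 6 libraries (left symbol of each pair) and without SsA replicate 1 and DMSO replicate 3 (right symbol). Filled symbols have an edgeR adjusted p below 0.05 over 11427 rows. The fold changes differ little between the fits, while the errors of the mRNAs shrink once the libraries picked by their high mitochondrial share are left out.

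Relative to the mitochondrial total instead, the same edgeR test over the same rows found 9 tRNAs lower (MT-TF, MT-TN, MT-TC, MT-TY, MT-TG, MT-TR, MT-TH, MT-TS2 and MT-TL2) and no gene higher, against 0.368% of all rows passing, 0.306% lower and 0.0613% higher. On this scale the biological coefficient of variation over all rows was 53.3%, against 15.3% with TMM, because the nuclear rows then carry the spread of the mitochondrial share, and the median over all rows was -0.45. MT-TH stood at -4.07 ± 0.80 (edgeR adjusted p = 0.00106) and MT-ND5 at -2.15 ± 0.58 (edgeR adjusted p = 0.0585). At an unadjusted p below 0.05 there were 19 genes. The number of all rows at that threshold is not given for any fit, so such counts have no background to be read against. DESeq2 called 17 genes, 15 tRNAs and 2 mRNAs, all lower. Of all 11427 rows DESeq2 called 9 higher and 195 lower. No mitochondrial gene passed when SsA library 2 or 3 or DMSO library 1 or 2 was left out, with 17 to 18 genes at an unadjusted p below 0.05. Of all rows, 1 to 5 were higher and 1 to 2 lower in those fits, so few rows of any kind passed. Without SsA library 1, 6 passed, where 9 of all rows were higher and 17 lower. Without DMSO library 3, 15 passed, where 7 of all rows were higher and 249 lower. Without SsA library 1 and DMSO library 3, 31 genes passed, against 69.8% of all rows: 26 were lower, among them MT-ND1, MT-ND5 and MT-ND6, and 5 higher, MT-CO2, MT-CO3, MT-CYB, MT-ATP8 and MT-TS1.

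Of 44 nuclear genes for mitochondrial transcription, RNA processing and DNA maintenance, all were tested on the TMM scale; 8 rose, 7 fell and 29 did not pass, where 53.8% of all rows passed. The median of the 44 was 0.08. SLIRP, a stem-loop binding partner of LRPPRC, was at 49.6, 57.7 and 63.8 CPM in SsA, against 27.8, 30.1 and 24.5 in DMSO, a rise with a log2 fold change of 1.05 ± 0.12 (adjusted p = 5.55e-04, edgeR). HSD17B10, a subunit of mitochondrial RNase P, was at 165, 199 and 213 in SsA, against 112, 117 and 94.4 in DMSO, with a log2 fold change of 0.83 ± 0.12 (edgeR adjusted p = 0.00145). The other subunits of that enzyme did not pass, TRMT10C at 0.00 ± 0.06 and PRORP at -0.15 ± 0.30, nor did ELAC2 at 0.08 ± 0.06. The other genes of smallest p among those that rose were REXO2, an oligoribonuclease, at 0.55, and FASTK, an RNA-binding protein linked to MT-ND6 mRNA, at 0.42.

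PDE12, which trims poly(A) tails, was at 36.3, 34.1 and 35.3 CPM in SsA, against 45.7, 46.5 and 47.4 in DMSO, with a log2 fold change of -0.40 ± 0.06 (adjusted p = 0.00196, edgeR). TWNK, the replicative helicase, fell by 0.52, PTCD2 by 0.26 and RNASEH1, which removes RNA from RNA-DNA hybrids, by 0.28. With the length trend removed REXO2, PDE12 and PTCD2 changed sign, to -0.15, 0.17 and 0.46. POLRMT, the mitochondrial RNA polymerase, was at 38.6, 49.5 and 47.2 CPM in SsA and 45.4, 48.5 and 39.6 in DMSO, an overlap, with a log2 fold change of 0.02 ± 0.12. TFAM, which packs the DNA and starts transcription, was at -0.06 ± 0.10, and LRPPRC, which keeps mitochondrial mRNAs stable, at -0.18 ± 0.07 (edgeR adjusted p = 0.0733). None of these last 3 passed the test.

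Copies of mitochondrial genes in the nuclear genome can take reads of the true genes or give reads to them. The 50 such rows held counts equal to 3.53, 2.87 and 2.90% of the mitochondrial counts in SsA and 2.72, 2.84 and 3.48% in DMSO. The row of highest count, MTATP6P1 on chromosome 1, had 26.9, 20.9 and 21.2 counts per 100 MT-ATP6 counts in SsA and 19.5, 19.5 and 23.5 in DMSO. MTND2P28 had 15.2, 15.4 and 14.7 per 100 MT-ND2 counts in SsA, against 18.4, 18.6 and 18.9 in DMSO. MTCO1P12 had 2.81, 2.54 and 2.46 per 100 MT-CO1 counts in SsA and 1.97, 2.37 and 2.74 in DMSO, while MTCO3P12 and MTCO2P12 each had at most 0.127 per 100 counts of MT-CO3 and MT-CO2. Values for MT-ATP6 and MT-ND2 may therefore lack reads that were counted on their copies. Reads that the copies gave to the true genes cannot be seen in these counts. Nuclear copies of tRNA genes were not looked for.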

How the data were processed

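RNA-seq of 6 libraries was used. The submitters' processing notes name the build GRCh38 and the tools StringTie 1.3.4d, HISAT2 2.0.4 and cutadapt 1.9, without roles, and no counting step. The authors deposited whole-number counts and FPKM values per gene, per the file headers. Counts were taken as raw since their totals differ; FPKM served for a filter (at least 1 in at least 3 of 6 libraries, 11427 rows, all 37 mitochondrial genes among them), for levels and for alternatives. Genes were tested with edgeR 4.0.16 (quasi-likelihood, TMM; R 4.3.3), first on TMM-scaled counts and then with the summed mitochondrial counts as library size, adjusted by Benjamini-Hochberg over all rows. Group shares were tested by exact two-sided permutation over libraries (scipy 1.17.1). Alternatives used DESeq2 1.42.0 and limma 3.58.1. The tests were also run on simulated data, but no result of that is given here. It is therefore no evidence on how they behave on these libraries. tRNA clusters are tRNAs within 75 nt of each other. Values per library are given for the rRNAs, the mRNAs and tRNAs with a mean of at least 100 counts; nuclear genes named are the 4 of smallest p in each direction plus POLRMT, TFAM, LRPPRC and SLIRP, with TRMT10C, PRORP and ELAC2 added after their values were seen. The members and gene lists were chosen with earlier results of these data known.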

Additional observations from a re-analysis of the deposited data

How the results depend on the processing

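The class shares and the strand ratio kept their direction under every alternative run for them: FPKM in place of counts, a total without rRNA, each library left out, SsA library 1 and DMSO library 3 left out, and the replicate block. The mitochondrial share of all counts did not: its difference lay between -1.19 and 5.31 percentage points when each library was left out. What limits the report is the spread of the mitochondrial share, the lack of a tRNA-sized library, counts as low as 8 on a tRNA row, and the strand setting, which is not known. The cause of the changes below was not tested.

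Of 37 mitochondrial genes, 34 passed the TMM fit (12 higher) without SsA library 1 and DMSO library 3. With a term for the log2 mitochondrial share of the library, an alternative chosen after seeing the data, 32 passed (7 higher). That share is summed from the same genes, so the term takes their common spread out of their errors. Of all 11427 rows, 3801 were higher and 3946 lower in the former fit, and 4182 and 4070 in the latter. With the length trend removed 0 were higher (2 mRNAs and 21 tRNAs were lower, and 23 genes had an unadjusted p below 0.05). In that fit 1518 of 11382 rows were higher and 2229 lower. It was run with edgeR only, and DESeq2, run only with the trend left in, called 1 higher, with 3334 rows higher and 3423 lower. Leaving out each library gave 17 to 21 genes, of which 1 to 5 were higher, the 5 without DMSO library 3. Across all rows those fits called 2005 to 3153 higher and 2594 to 3249 lower. Against the mitochondrial total, DESeq2 called 17 genes, the fit without both libraries 31, and leaving out each library 0 to 15. The rows called in all were 9 higher and 195 lower with DESeq2, and 790 and 7185 without both libraries. With each library left out they were 1 to 9 higher and 1 to 249 lower.

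Deviations of same-numbered libraries from their group means correlated over genes at -0.41, 0.37 and -0.44. SsA library 1 with DMSO library 3 gave 0.63, the highest value. SsA libraries 2 and 3 with DMSO libraries 1 and 2 gave 0.29 to 0.37. All other pairs were negative, from -0.50 to -0.41. The deviations of a group cancel out, so with an outlying library in each group these values depend on each other. They show that SsA library 1 and DMSO library 3 deviated alike. They cannot decide whether the replicate numbers pair the libraries. No fit used a block that pairs SsA library 1 with DMSO library 3. With the replicate block the TMM fit called 17 genes (MT-TV was lost), where 2074 of 11427 rows were higher and 2542 lower. The block fit to the mitochondrial total called 0 genes and 0 of all rows, so its 0 is not particular to mitochondrial genes. In it 17 genes had an unadjusted p below 0.05, with no number over all rows to set beside them. The share differences are by construction the same with and without the block (2.43 percentage points for the mitochondrial share). With the block their sign-flip permutation p was at least 0.25, the smallest possible.

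Of the 44 nuclear genes, 8 passed with limma on log2(FPKM + 1) and 8 with log2(FPKM + 0.1), 2 of them higher in each case. Of all 11427 rows, 914 were higher and 3723 lower with the former, and 886 and 3699 with the latter. There were 23 (14 higher) without SsA library 1 and DMSO library 3 and 29 (19 higher) with the term for the mitochondrial share. More of all rows passed in these fits as well, 3801 higher and 3946 lower in the former, and 4182 and 4070 in the latter. Scaled to total counts 3 were higher, and with the length trend removed 5, where 1237 of 11427 and 1518 of 11382 rows were higher. Without the FPKM filter 2 were lower, and with the replicate block 2, where 3177 of 29435 and 2542 of 11427 rows were lower. Leaving out each library gave 2 to 9 lower genes, 7 to 12 higher and 10 to 18 in all. Among all rows, 2594 to 3249 were lower and 2005 to 3153 higher in those fits.

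For single genes, 871 of the values recomputed kept their direction and side of the threshold, 76 came to pass it, 75 no longer passed it and 68 changed sign. Nearly all sign changes were of genes that had not passed. With the length trend removed, the log2 fold changes that turned were -0.67 for MT-RNR1, -0.51 for MT-RNR2, -0.81 for MT-ND1, -0.18 for MT-ND2, -0.039 for MT-CO1, -1.50 for MT-TS1, -0.050 for MT-CO2, -1.34 for MT-ATP8, -0.60 for MT-ATP6, -0.62 for MT-ND3, -1.54 for MT-ND4L, -0.10 for MT-ND4, -1.80 for MT-TP, -0.15 for REXO2, 0.17 for PDE12, 0.46 for PTCD2, 0.20 for TFAM and 0.18 for LRPPRC. Of these MT-TS1, REXO2, PDE12 and PTCD2 had passed with TMM. With the term for the mitochondrial share, values turned to -0.033 for MT-RNR1, -0.20 for MT-RNR2, -0.48 for MT-ND1, -0.64 for MT-ND4L and 0.0019 for TFAM.

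Scaled to total counts, values turned to -0.13 for MT-RNR2, -0.14 for MT-ND1, -0.14 for MT-ND4L and -0.13 for POLRMT, and with mean FPKM of at least 5 to -0.11, -0.10, -0.11 and -0.097 for the same genes. With limma on log2(FPKM + 1) they turned to -0.0032 for MT-RNR1, -0.12 for MT-RNR2, -0.19 for MT-ND1, -0.25 for MT-ND4L and -0.13 for POLRMT, and with log2(FPKM + 0.1) to -0.0032, -0.12, -0.19, -0.25 and -0.14 for the same genes. TMM without the mitochondrial rows gave -0.0018 for MT-RNR2, the replicate block -0.031 for MT-ND1 and -0.10 for MT-ND4L, and the fit without SsA library 1 and DMSO library 3 -0.089 for MT-ND1 and -0.21 for MT-ND4L.

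Leaving out each library in turn, the log2 fold changes that turned ranged from -0.11 to 0.43 for MT-RNR1, -0.30 to 0.41 for MT-RNR2, -1.17 to 0.39 for MT-TL1, -0.81 to 0.75 for MT-ND1, -1.04 to 0.067 for MT-TM, -0.19 to 1.28 for MT-ND2, -0.081 to 1.05 for MT-CO1, -0.11 to 1.26 for MT-ATP8, -0.17 to 1.17 for MT-ATP6, -1.10 to 0.92 for MT-ND4L, -0.29 to 1.23 for MT-ND4, -0.19 to 1.41 for MT-TP, -0.075 to 0.12 for POLRMT and -0.16 to 0.013 for TFAM.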
